A study of Homo sapiens with 8 samples.

Results

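RNA of human acute myeloid leukaemia cells labelled Molm13 was compared with RNA of cells labelled U937 in libraries of the control genotype. The comparison took in all 4 control libraries of a series of 8: under each line label 1 library of a light and 1 of a heavy sucrose gradient pool. Libraries were paired by pool, and a difference counted when it had the same direction in both pairs. The other 4 libraries are labelled as overexpressing OGFOD1 (OE), a prolyl hydroxylase of the ribosomal protein RPS23, from a lentiviral vector. The control genotype is named ctrl in the sample titles and Scr in the library names, without its vector. Cells of both lines were grown in RPMI medium with serum and received cycloheximide, which halts ribosomes on mRNA, before lysis. The light pool held RNA of free particles, single ribosomes and disomes, and the heavy one all fractions with 3 or more ribosomes. As far as the labels say, each line and genotype is 1 gradient, so the light and heavy libraries of a label share their cells and p-values measure only the spread between pools and not between cultures. Levels are given as CPM (counts scaled to library size and composition), which compare a gene between libraries and not genes with each other, and differences as log2 values of Molm13 over U937.

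Molm13 is an acute monocytic leukaemia line that carries a fusion of KMT2A with MLLT3 and an internal tandem duplication of the receptor kinase FLT3. KMT2A fusions keep the late HOXA genes and their cofactor MEIS1 active. U937 came from a histiocytic lymphoma, resembles immature monocytes and carries a fusion of PICALM with MLLT10, which also acts on HOXA genes. An mRNA in the heavy pool is loaded with many ribosomes, while the light pool holds mRNA that is little translated together with mitochondrial ribosomes and their RNA.

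Total counts were 57578482 to 89373133 in the control libraries and 25741930 to 74847383 in the libraries labelled OE. The Molm13 control light library stood apart from the other light libraries in mitochondrial RNA. The mitochondrial rRNA MT-RNR2 was at 6119 CPM there, at 120937 CPM in the U937 control light library and at 122051 and 116155 CPM in the light libraries labelled OE. In the heavy libraries it was at 676 to 2274 CPM. Mitochondrially encoded mRNAs made up 1.77% of the Molm13 control light counts, against 6.77% to 11.6% of the other light libraries. The nuclear RNA MALAT1 was at 3147 CPM in Molm13 control light and 589 CPM in U937 control light, with 1316 and 500 CPM in the heavy pair. OGFOD1 itself, at 33.0 and 44.4 CPM in the light and heavy Molm13 control libraries and 49.8 and 60.2 CPM in the U937 ones, was lower in every library labelled OE (10.1 to 25.3 CPM) than in all 4 control ones. Results below are therefore given with and without the Molm13 control light library, and the part its pool composition plays in them was not tested.

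**Figure D1:**
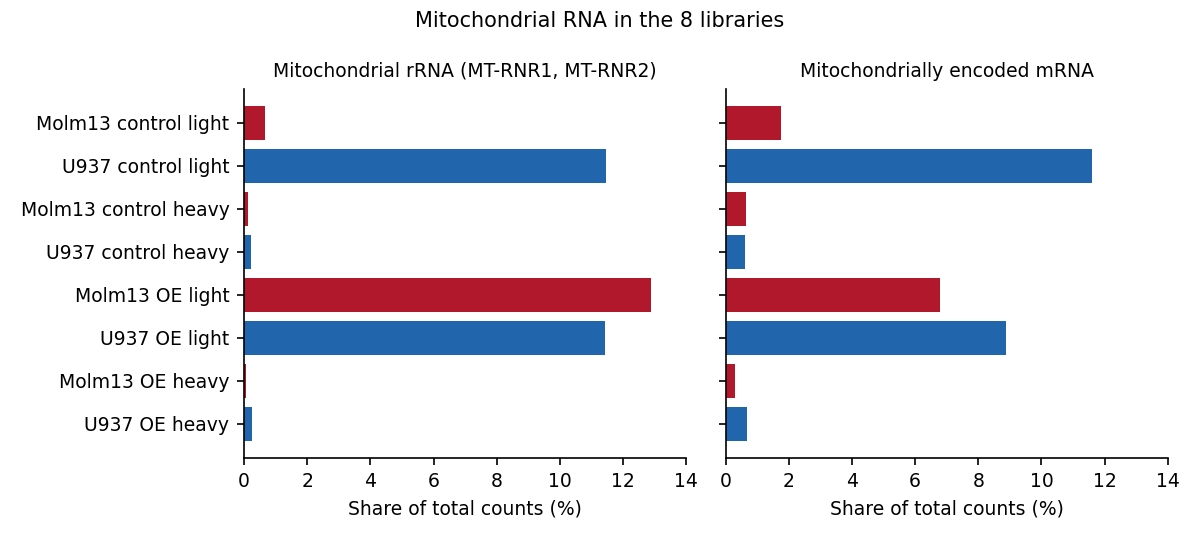
Share of each library's total counts in mitochondrial rRNA (left) and in mitochondrially encoded mRNA (right), in percent, with 1 bar per library (red Molm13, blue U937). Molm13 control light, with 0.673% rRNA, lies near the heavy libraries, while the other 3 light libraries hold 11.4% to 12.9%.

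The labels were then set against genes that could tell the lines apart. No gene was at 5 CPM or more in both control libraries of one label and under 0.2 CPM in both of the other, in either direction, while 9851 genes were at 5 CPM or more in all 4. With limits of 1 and 0.1 CPM there were 3 such genes, all on under Molm13: the growth factor gene PDGFB (1.16 and 1.08 CPM against 1 and 2 counts), the small GTPase gene RRAD (1.31 and 1.5 CPM against 0 and 5 counts) and ENSG00000310471, for which no symbol was found. A count of 0 in the U937 control light library allows up to 0.0560 CPM (3 counts). All 3 were detected in the U937 libraries labelled OE, with PDGFB at 0.675 and 2.26 CPM. In the libraries labelled OE, GPR158 and the microRNA locus MIR621 met these limits, both on under U937. GPR158 had 0 counts in the control libraries of both labels. Rank correlations across tested genes were 0.941 between the light control libraries, 0.974 between the heavy ones and 0.967 between Molm13 control light and U937 control heavy. These values are a description over the same genes in libraries of unequal depth. Results are therefore given for libraries labelled Molm13 and U937.

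Genes tied to the driver lesions of the lines were present at like levels under both labels. FLT3 (ENSG00000122025, chromosome 13, 28003274 to 28100592, GRCh38) was at 136 and 85.3 CPM in the light and heavy Molm13 libraries and at 113 and 114 CPM in the U937 ones. The fitted log2 difference of FLT3 was -0.07 (SE 0.44, edgeR adjusted p = 0.969). HOXA9, the homeobox gene that KMT2A fusions activate, was at 97.8 and 61.3 CPM against 98.9 and 94.0 CPM (log2 fold change -0.32, SE 0.41). Its partner HOXA10 was at 33.3 and 32.4 CPM against 29.8 and 29.7 CPM. The cofactor MEIS1 was at 20.4 and 25.8 CPM against 31.3 and 27.2 CPM (-0.35, SE 0.34). For each of these genes the values of the labels overlapped or lay close together.

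Of the 18 HOXA genes and cofactors, 0 were called, and the median difference was -0.08 in the light and 0.03 in the heavy pair. None of 16 tested KMT2A fusion targets and none of 18 fusion partners and cofactors was called. Over all tested genes 0.844% were called higher under Molm13 and 0.07% higher under U937. Lists of this size with 0 calls are therefore not set apart from other genes. Among the 28 genes of the other HOX clusters, all stayed under 1 CPM in the 4 control libraries. CDKN2A stayed under 0.3 CPM, and the monocyte antigen CD14 under 0.4 CPM, in all 4. Myeloid genes were present under both labels, with PU.1 (SPI1) at 152 and 175 CPM under Molm13 and 44.4 and 142 CPM under U937, CEBPA at 332 and 336 against 182 and 339 CPM, and lysozyme (LYZ) at 378 and 478 against 298 and 551 CPM. The neutrophil peroxidase gene MPO was lower under Molm13 in both pools, at 17.6 and 31.1 CPM against 36.1 and 50.9 CPM, and did not pass the test (-0.88, SE 0.345, adjusted p = 0.28).

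Most genes differed little between the labels. Of 9227 genes with a mean of at least 10 CPM over the control libraries, 6246 (67.7%) were within a log2 difference of 1 in both pairs. The light pair differed more than the heavy pair, with a median absolute difference of 0.62 against 0.32, and 2615 genes against 577 differed by at least 1. Across tested genes the light and heavy differences correlated at 0.23, a description over genes that share libraries. By size alone, with no test, 117 genes were at least 1 higher under Molm13 in both pairs, 1.27% of the 9227, and 53 were at least 1 higher under U937, 0.574% of them. The balance turned between the pools: 1705 genes were higher under Molm13 and 910 under U937 in the light pair alone, and 188 and 389 in the heavy pair alone. With edgeR on all 24289 tested genes, 205 genes were called higher under Molm13 (0.844%) and 17 higher under U937 (0.07%); called means an adjusted p under 0.05 and the same direction in both pairs. At an unadjusted p under 0.05 there were 3207.

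The calls took the pools as replicates. With the counts of each gradient summed, a fit that takes the line difference over both genotypes, 0 genes passed (1184 at an unadjusted p under 0.05), and with the pool left out of the control fit 0 passed (1236 unadjusted). Without the Molm13 control light library, which leaves the heavy pair, 112 and 55 genes passed, and 96 of the 222 calls were among them. That fit compares 1 control library with 1 control library and takes its spread from the OE pairs, on the assumption that control libraries vary alike. Calls given below without this library therefore describe the size of the heavy difference and are no replicate check. Without the U937 control light library the counts were 122 and 52. Leaving out a heavy library gave 2034 and 765 (Molm13) or 1949 and 771 (U937). DESeq2 called 441 and 126, which lowers the share of calls higher under Molm13 from 92.3% to 77.8%, and included 221 of the 222.

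**Figure D2:**
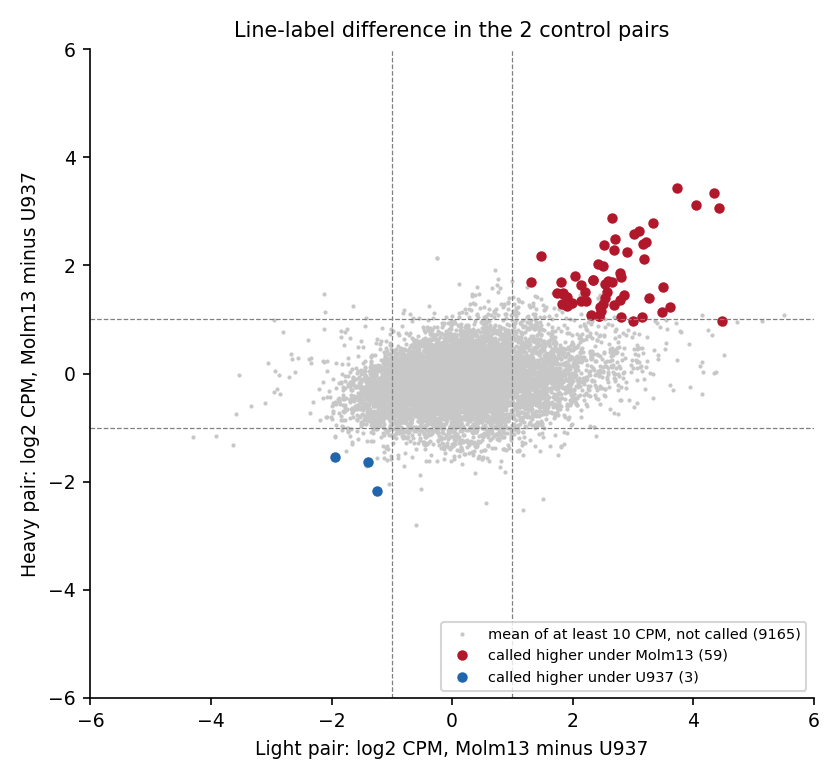
Log2 CPM difference of Molm13 minus U937 in the light control pair (x axis) and the heavy control pair (y axis) for 9227 genes with a mean of at least 10 CPM; each point is a gene and dashed lines mark a difference of 1. The 59 genes called higher under Molm13 lie at upper right and the 3 called higher under U937 at lower left, while the cloud is wider along the light axis.

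Genes of hypoxia and glycolysis formed one group among the called genes. Cells short of oxygen, or with stabilised hypoxia-inducible factors, raise glucose uptake, glycolysis, lactate export and pH regulation through factors that bind a short core motif, ACGTG or GCGTG. Promoters of 4 of the called genes are shown because these genes differed together; each is the 250 bases before the RefSeq start (GRCh38.p14), read 5′ to 3′ on the gene's strand, with matches to either motif on either strand in capitals. ALDOC is a glycolytic aldolase (chr17:28576896-28577145, minus strand), PFKFB4 sets the level of a regulator of phosphofructokinase (chr3:48556804-48557053, minus strand), CA9 is a carbonic anhydrase of the cell surface (chr9:35673678-35673927, plus strand) and ENO2 is an enolase (chr12:6914330-6914579, plus strand).
ALDOC: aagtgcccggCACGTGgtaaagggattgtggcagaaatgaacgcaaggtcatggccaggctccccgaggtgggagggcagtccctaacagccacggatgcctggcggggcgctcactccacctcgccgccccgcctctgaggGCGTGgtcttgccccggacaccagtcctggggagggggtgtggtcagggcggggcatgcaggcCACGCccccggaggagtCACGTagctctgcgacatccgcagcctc
PFKFB4: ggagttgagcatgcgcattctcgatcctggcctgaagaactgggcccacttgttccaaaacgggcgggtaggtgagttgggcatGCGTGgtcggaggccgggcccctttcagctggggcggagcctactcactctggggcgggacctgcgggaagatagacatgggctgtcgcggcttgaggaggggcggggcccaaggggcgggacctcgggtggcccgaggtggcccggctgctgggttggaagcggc
CA9: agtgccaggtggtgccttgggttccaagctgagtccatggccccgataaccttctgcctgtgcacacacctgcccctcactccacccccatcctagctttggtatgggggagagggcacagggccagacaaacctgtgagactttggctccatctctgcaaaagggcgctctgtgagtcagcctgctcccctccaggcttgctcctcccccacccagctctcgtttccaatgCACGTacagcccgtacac
ENO2: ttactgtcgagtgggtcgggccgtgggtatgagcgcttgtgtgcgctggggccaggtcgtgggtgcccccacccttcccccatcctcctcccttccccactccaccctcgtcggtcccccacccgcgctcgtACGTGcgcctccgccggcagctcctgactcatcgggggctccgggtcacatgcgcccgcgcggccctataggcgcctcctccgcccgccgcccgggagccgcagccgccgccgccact
The ALDOC window holds 5 matches and the other windows 1 each. CACGTG is read as a match on either strand and counts as 2. For ALDOC and CA9 the RefSeq start lies inside the GENCODE limits of the gene given below. The ALDOC window therefore falls wholly within those limits and the CA9 window partly. Of the 12 called members of the list, 10 had an entry among the promoters, with 14 windows in all, 11 of which (78.6%) had a match. The motif is common: 68.3% of the windows of all list genes, 53.5% of those of tested genes and 43.2% of all 35116 windows hold it, so a match describes only the letters.

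ALDOC (ENSG00000109107, chromosome 17, 28573115 to 28577264) was at 238 and 213 CPM in the light and heavy Molm13 control libraries and at 11 and 25.4 CPM in the U937 ones. Both Molm13 values were above both U937 values, with a fitted log2 difference of 3.75 (SE 0.53, edgeR adjusted p = 0.00107). CA9 (ENSG00000107159, chromosome 9, 35673856 to 35681159) was at 17.1 and 6.59 CPM against 0.299 and 0.432 CPM. The U937 values rest on 16 and 32 counts, with exact 95% Poisson limits of 0.171 to 0.485 and 0.296 to 0.610 CPM, which cover counting error only. Its log2 fold change of 4.82 (SE 0.49) had the smallest adjusted p of all genes, 0.000159. ENO2 was at 12.4 and 14.2 CPM against 1.21 and 1.26 CPM (3.42, SE 0.39), nearly the same in both pools of a label. PFKFB4 was at 53.1 and 54.9 CPM against 5.26 and 7.94 CPM (3.06, SE 0.39). For each of these 4 genes the lower Molm13 control value lay above the higher U937 control value. This is a description, as they were taken from the genes called for that direction.

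NDRG1, a stress-induced gene of differentiation, was at 337 and 368 CPM under Molm13 and 37.7 and 69.8 CPM under U937 (2.78, SE 0.51). ANGPTL4, a secreted inhibitor of lipoprotein lipase, was at 4.16 and 3.24 CPM against 0.149 and 0.297 CPM (4.04). The lipid droplet protein gene PLIN2 was at 77.9 and 67.8 CPM against 12.9 and 20.8 CPM (2.15). The lactate exporter SLC16A3 was at 70.3 and 51.7 CPM against 9.74 and 18.8 CPM (2.15). The remaining called members, which the naming rule did not reach, were the glucose transporter SLC2A3 (1.93), the transcription factor BHLHE40 (1.79), the histone demethylase KDM4B (1.56) and the collagen prolyl hydroxylase P4HA2 (2.99). All 12 members were higher under Molm13 in both control pairs.

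In all, 12 of 54 tested members of the list rose under Molm13 and 0 under U937, where 0.844% and 0.07% of all tested genes did. The list was made after values were seen, and its median was 0.93 (1.39 in the light and 0.67 in the heavy pair), against 0.03 over all tested genes. Enzymes of the main glycolytic chain had positive values short of the threshold. GAPDH was at 3194 and 3252 CPM under Molm13 and 1633 and 2181 CPM under U937 (0.77), PGK1 at 486 and 572 against 179 and 449 CPM (0.90), and LDHA at 1552 and 1732 against 888 and 1317 CPM (0.60). The vasodilator peptide gene ADM differed in the light pair alone, with 16.4 against 0.392 CPM there and 1.15 against 1.24 CPM in the heavy pair. Without the Molm13 control light library the fitted differences, from the heavy pair and with the spread of the OE pairs, were 3.07 for ALDOC, 3.92 for CA9, 3.5 for ENO2 and 2.79 for PFKFB4. With that spread 8 members passed, and SLC16A3 (1.46), BHLHE40 (1.35), KDM4B (1.29) and P4HA2 (2.16) did not. ALDOC, CA9, ENO2, PFKFB4 and SLC16A3 overlap a coding gene on GENCODE 29, and reads of overlapping genes cannot be told apart here.

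The second group held targets of NF-kB, the transcription factor of inflammatory signalling, and early response genes, which cells switch on within a short time of growth factor or stress signals. CYTIP, a regulator of cytohesins in leukocytes, was at 44.6 and 45.2 CPM in the light and heavy Molm13 control libraries and at 7.74 and 8.66 CPM in the U937 ones (2.46, SE 0.38, adjusted p = 0.00202). RGS1 (ENSG00000090104, chromosome 1, 192575727 to 192580031), which damps G protein signalling, was at 30.4 and 13.2 CPM against 3.51 and 2.11 CPM (2.88, SE 0.38). BCL2A1, an inhibitor of apoptosis, was at 18.1 and 19.9 CPM against 1.92 and 3.66 CPM (2.83, SE 0.38). PHLDA1 was at 22.6 and 17.7 CPM against 3.58 and 2.38 CPM (2.78, SE 0.36). For these 4 genes the lowest Molm13 control value was more than 3 times the highest U937 control value.

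TRAF1, a signalling adaptor of TNF receptors, was at 3.09 and 2.21 CPM against 0.411 and 0.270 CPM (2.96). The adhesion molecule ICAM1 was at 24.6 and 12.6 CPM against 4.29 and 3.17 CPM (2.26). The chemokine gene CCL5 (ENSG00000271503, chromosome 17, 35871491 to 35880793) was at 652 and 468 CPM against 71.7 and 108 CPM (2.65, SE 0.55, adjusted p = 0.0243). CCL3 was at 19.7 and 17.7 CPM against 3.04 and 3.61 CPM (2.49), CCL24 at 16.6 and 3.99 against 0.392 and 1.20 CPM (3.43), CCL4 at 3.84 and 1.51 against 0.317 and 0.473 CPM (2.60) and CCL2 at 4.25 and 1.96 against 0.336 and 0.675 CPM (2.54). CCL3 has a near-identical copy, so its value is uncertain. These chemokines attract monocytes, lymphocytes and eosinophils, and the 5 named were the called members of 35 tested chemokines, cytokines and chemokine receptors, beside 0.844% of all tested genes.

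Among immediate early transcription factors, JUN was at 2.97 and 4.86 CPM under Molm13 and 1.18 and 0.648 CPM under U937 (2.11), EGR3 at 1.80 and 1.77 against 0.317 and 0.230 CPM (2.72) and KLF2 at 6.58 and 16.1 against 2.24 and 3.71 CPM (1.84). The EGR corepressor NAB2 (1.83), which overlaps STAT6, and the NF-kB cofactor BCL3 (1.83) completed the called members. In all, 14 of 60 tested members rose under Molm13 and 0 under U937, beside 0.844% and 0.07% of all tested genes, with a median of 0.83; this list too was made after values were seen. The medians were 1.02 in the light and 0.88 in the heavy pair, so the pools differed less here than for the hypoxia list. Of the 60 members, 42 were higher under Molm13 in both pairs and 4 lower in both. Members with small fitted differences and no call included TNFAIP3 (0.14), SOD2 (-0.21), FOS (0.36), JUND (-0.15) and MYC (-0.06). The NF-kB inhibitor gene NFKBIA was at 1.18 in the light and -0.12 in the heavy pair, and EGR1 at -0.82 and 1.12. Without the Molm13 control light library, with the spread of the OE pairs, 14 members passed, CCL4 and BCL3 not among them; CCL24 and CCL2, outside this list, were lost as well.

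Receptors and surface proteins of monocytes formed a smaller set. FCGR2B (ENSG00000072694, chromosome 1, 161663147 to 161678654), the inhibitory Fc receptor, was at 20.0 and 6.56 CPM under Molm13 and 0.560 and 0.851 CPM under U937 (4.01, SE 0.49, adjusted p = 0.000486); it has near-identical neighbours, and its value is uncertain. TREM1, an activating receptor of neutrophils and monocytes, was at 7.34 and 6.84 CPM against 1.08 and 1.34 CPM (2.55). ITGAX, the CD11c integrin chain, was at 14.3 and 10.3 CPM against 2.56 and 1.85 CPM (2.48, SE 0.37). SIGLEC7, an inhibitory receptor for sialic acids, was at 5.44 and 4.73 CPM against 0.560 and 1.32 CPM (2.52). FCGR2B, TREM1 and SIGLEC7 were 3 of 45 tested phagocyte surface molecules, and ITGAX and ICAM1 2 of 29 integrins and adhesion genes. Over all tested genes 0.844% were called higher under Molm13. CD33 (-0.65) and CD36 (-1.10) had negative values short of the threshold. The tetraspanin CD9 was at 11.8 and 3.66 CPM against 0.560 and 1.27 CPM (2.89).

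CSF1R, the receptor for the macrophage growth factor M-CSF, was at 24.9 and 25.4 CPM under Molm13 and 6.66 and 9.51 CPM under U937 (1.66, SE 0.35, adjusted p = 0.0264). The interleukin 10 receptor chain IL10RA was at 9.59 and 7.35 CPM against 1.44 and 2.88 CPM (2.03), and the kinase AXL at 15.8 and 8.23 against 3.32 and 3.88 CPM (1.67). Of 29 tested cytokine and growth factor receptors these 3 rose under Molm13, and 2 were higher under U937, beside 0.844% and 0.07% of all tested genes. IL7R, the interleukin 7 receptor chain, was at 5.67 and 3.72 CPM under Molm13 and 18.6 and 11.3 CPM under U937 (-1.66, SE 0.37). IL6ST, the chain shared by receptors of the interleukin 6 family, was at 2.96 and 1.24 CPM against 11.1 and 4.5 CPM (-1.88, adjusted p = 0.0497). The list's median was 0.15. All 5, with SIGLEC7 and CD9, lost their calls without the Molm13 control light library and kept their direction, with CSF1R at 1.42 and IL7R at -1.60. FCGR2B was at 2.94 in the heavy pair left by that fit, whose spread comes from the OE pairs, and passed there with TREM1 and ITGAX.

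**Figure D3:**
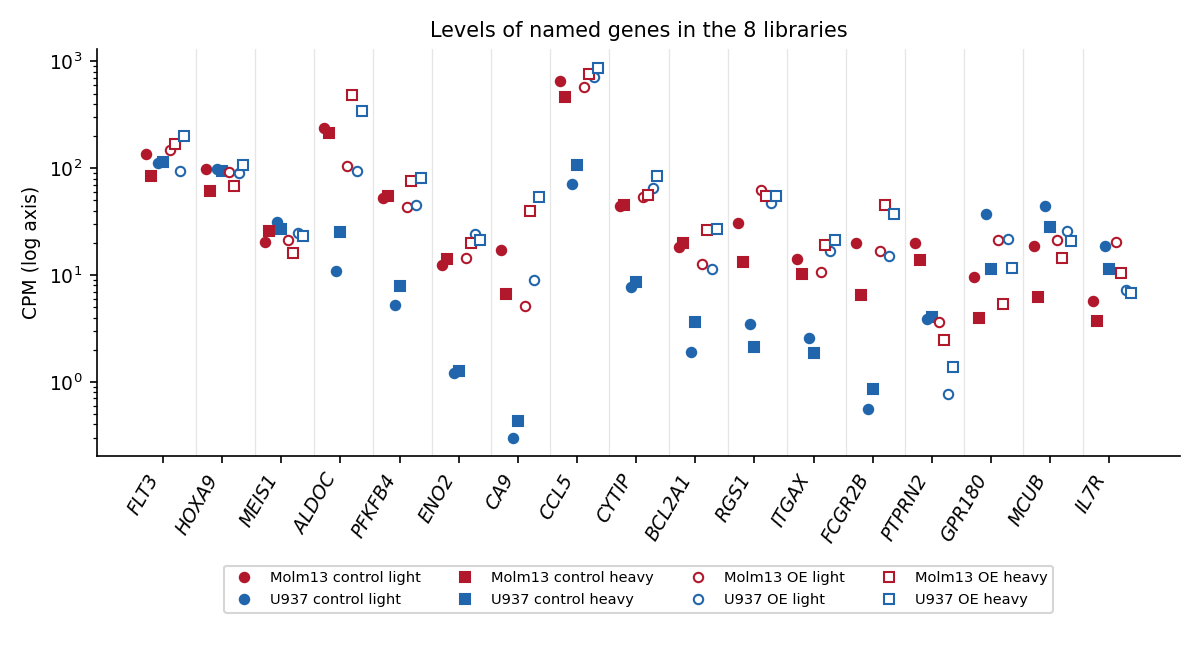
CPM on a log axis of 17 named genes in the 8 libraries (red Molm13, blue U937; circles light, squares heavy; filled control, open OE), with 1 symbol per library. For genes from ALDOC to FCGR2B the filled blue symbols lie below all others, while FLT3, HOXA9 and MEIS1 show no such gap.

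Other lists gave single members. NCF1, a subunit of the phagocyte oxidase, which makes superoxide, was called at 126 and 139 CPM under Molm13 against 10.3 and 59.5 CPM under U937 (2.41), with pseudogenes that make its counts uncertain. OAS1 (2.90) and GBP2 (2.20) were 2 of 46 interferon-induced genes, whose median was 0.83. EGR3 and KLF2, described above, were also called members of the list of 50 tested myeloid transcription factors. GDF15, a stress cytokine, was called at 4.30 and 3.97 CPM against 0.896 and 0.635 CPM (2.45), and CDKN1A, a cell cycle inhibitor, was at 324 and 314 against 115 and 176 CPM (1.16, adjusted p = 0.325). CDKN1C (3.5) was called of 19 G1 genes and CTSL (1.68) of 30 granule genes. These counts stand beside 0.844% of all tested genes called higher under Molm13 and are not read as results about the lists. NCF1, CDKN1C and CTSL were not called without the Molm13 control light library.

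Markers of other blood cells were few. CD3D, a chain of the T cell receptor complex, was called at 32.0 and 13.8 CPM under Molm13 and 1.40 and 7.02 CPM under U937 (2.69), but 15 of 18 T and NK cell markers stayed under 1 CPM in all 4 control libraries. NKG7 was at 238 and 166 against 38.0 and 140 CPM. Summed levels of that list were 276 and 182 CPM under Molm13 and 40.9 and 150 CPM under U937. Of 12 B cell markers 10 were under 1 CPM, and of 14 erythroid and megakaryocyte markers 13 were, with HBD called at 1.06 and 1.20 against 0.0560 and 0.162 CPM. The calls of CD3D and HBD were lost without the Molm13 control light library. The part of other cells in these values was not tested.

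Among called genes that averaged 10 CPM or more and kept their direction in the pairs labelled OE, the largest differences outside these lists were the following. OCSTAMP, a membrane protein of osteoclast fusion, was at 111 and 124 CPM under Molm13 and 17.6 and 38.3 CPM under U937 (2.18). The lamin gene LMNA was at 83.4 and 99.7 against 12 and 39.0 CPM (2.07). The potassium channel KCNN4 was at 77.4 and 106 against 13.4 and 40.2 CPM (1.97). PTPRN2, a phosphatase-like protein of secretory granules, was at 19.9 and 13.7 against 3.92 and 4.09 CPM (2.04). APOBR, a lipoprotein receptor (2.04), and PRR33 (2.31) overlap CLN3 and LSP1. Of these 6 genes OCSTAMP alone was called without the Molm13 control light library. The creatine transporter SLC6A8, which had the second smallest p and is named outside the rule, was at 21.5 and 16.6 CPM against 1.03 and 1.62 CPM (3.86, SE 0.41).

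Higher under U937 were 17 genes, 11 of them protein coding, and 3 with a mean of at least 10 CPM. GPR180 (ENSG00000152749, chromosome 13, 94601903 to 94634645), an orphan receptor gene, was at 37.1 and 11.5 CPM in the light and heavy U937 control libraries and at 9.61 and 3.94 CPM in the Molm13 ones (-1.75, SE 0.37, adjusted p = 0.027). Within each pool U937 was higher, while the light Molm13 and heavy U937 values lay close. MCUB, an inhibitory subunit of the mitochondrial calcium channel, was at 44.8 and 28 CPM against 18.9 and 6.17 CPM (-1.71, SE 0.37). The noncoding ZNF232-AS1, named outside the rule, was at 50.9 and 15.0 against 19.3 and 4.82 CPM (-1.52). SHISA2, a modulator of WNT and FGF signalling also outside the rule, was at 17.2 and 14.6 against 2.38 and 1.5 CPM (-3.06, SE 0.41). Without the Molm13 control light library, in the heavy pair with the spread of the OE pairs, MCUB was at -2.18 and passed, and GPR180 (-1.55) and ZNF232-AS1 did not.

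Several lists differed in the light pair and much less, or the other way, in the heavy pair. Nuclear genes of oxidative phosphorylation, which encode respiratory chain subunits, had a median of 0.98 in the light and -0.49 in the heavy pair, with 63 and 16 of 71 members positive. The mitochondrially encoded mRNAs were at -2.86 and 0.03, with MT-CO2 at 2800 CPM in Molm13 control light and 21059 CPM in U937 control light, against 608 and 742 CPM in the heavy pair. Granule proteins were at 1.40 and -0.34, with neutrophil elastase (ELANE) at 1718 and 422 CPM in the light and 2335 and 2840 CPM in the heavy libraries of Molm13 and U937. MHC class II genes were at 1.40 and -0.61 and class I presentation genes at 1.85 and 0.08, with CD74 at 541 and 140 CPM in the light and 557 and 565 CPM in the heavy pair. S100 proteins and annexins were at 1.85 and 0.40, and ribosomal proteins at -0.55 and -0.21. None of these lists but granule proteins had a called member, where 0.844% and 0.07% of all tested genes were called. Over all tested genes the medians were 0.05 and 0.01.

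By size alone 41 genes differed by at least 1 in opposite directions in the pools, 0.444% of the 9227: 37 were higher under Molm13 in the light and under U937 in the heavy pair. EIF4EBP1, the repressor of cap-dependent translation, was at 736 and 268 CPM in the light Molm13 and U937 libraries and at 259 and 700 CPM in the heavy ones. REEP6, a protein of the endoplasmic reticulum membrane, was at 75.0 and 22.3 CPM and then at 26.7 and 76.1 CPM, and the neuropeptide gene NPW at 40.2 and 14.1 CPM and then at 13.1 and 65.3 CPM. APOC2, an apolipoprotein whose counts equal those of the read-through gene APOC4-APOC2, was at 914 and 260 CPM and then at 299 and 762 CPM. The other 4 genes were MT-TL1, MT-TM, MT-TK and MTND2P28, mitochondrial tRNAs and a nuclear copy of a mitochondrial gene, all high in U937 control light; MT-TL1 was at 65.1 and 279 CPM in the light and 40.0 and 18.1 CPM in the heavy pair. Across genes the light difference correlated at 0.58 with the heavy minus light difference of the libraries labelled OE, and the heavy difference at -0.01, a description with no test. The part of fraction pooling in these differences was not tested.

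**Figure D4:**
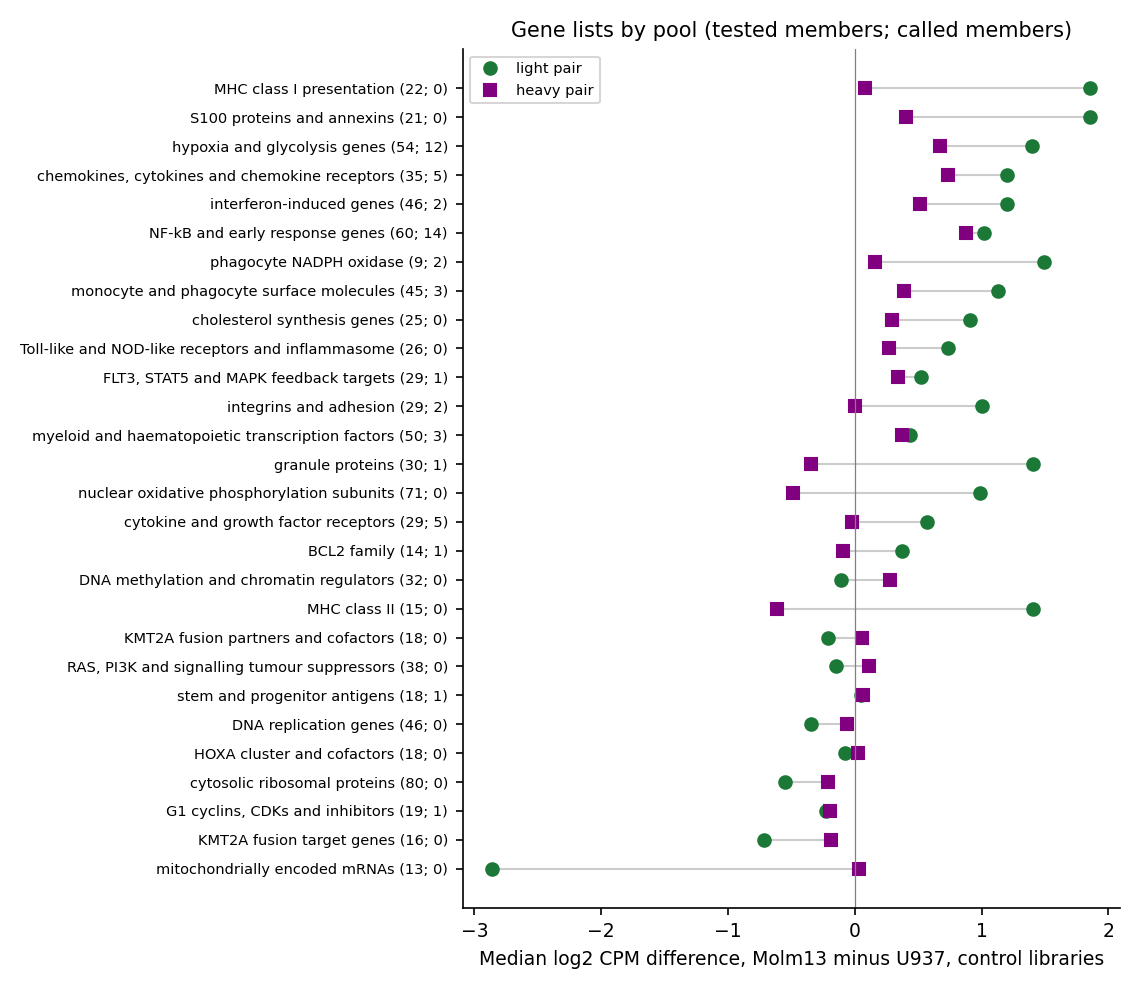
Median log2 CPM difference of Molm13 minus U937 over the tested members of each list shown, all with 9 or more, in the light (green circles) and heavy (purple squares) control pair; numbers in brackets give tested and called members. Mitochondrially encoded mRNAs sit at -2.86 in the light pair and 0.03 in the heavy pair, and NF-kB and hypoxia lists are positive in both.

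The pairs labelled OE gave the same line comparison in libraries that the control difference did not use. There 3 genes were called (0.0124%), with 1066 below 0.05 before adjustment: GPR158, ENSG00000259410 and ENSG00000285254, the last 2 without symbols. Of the 205 genes called higher under Molm13 in control, 108 (52.7%) were also higher under Molm13 in both OE pairs, where 23.6% of all tested genes were. Their median was 2.51 in control and 0.29 in the OE pairs, and 14 of them differed by at least 1 in both OE pairs. Of the 17 genes higher under U937, 12 (70.6%) had the same direction in both OE pairs, against 29% of all tested genes, with medians of -2.12 and -0.40. The direction was thus kept more often than over all genes, at a smaller size. All libraries enter the scaling and the shared spread, so the OE pairs are separate libraries within 1 fit.

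PTPRN2 was higher under Molm13 in both OE pairs without passing the test there, at 3.62 and 2.45 CPM in the Molm13 OE libraries and 0.774 and 1.38 CPM in the U937 OE ones. ALDOC did not keep its gap, at 105 and 488 CPM under Molm13 OE and 94.6 and 344 CPM under U937 OE, nor did PFKFB4, at 43.5 and 76.4 against 44.9 and 81.9 CPM. CA9 was at 5.18 and 39.4 against 9.03 and 54.0 CPM, and CCL5 at 580 and 764 against 722 and 873 CPM. RGS1 was at 62.3 and 55 against 47.5 and 54.8 CPM. In ALDOC, PFKFB4, CA9, CCL5 and RGS1 the lowest of the 4 OE values lay above both U937 control values. For 166 of the 205 genes (81.0%) both U937 control libraries were below all 6 other libraries. For 14 both Molm13 control libraries were above all 6 others. The 205 genes were called for U937 control values below Molm13 ones in both pairs, which fixes part of these counts in advance. The 7.16% of all tested genes with both U937 control libraries lowest is therefore no like background. Both U937 control libraries were lowest for 24 of 54 hypoxia and glycolysis and 29 of 60 NF-kB and early response genes. These 2 lists were made after values were seen, so their counts are no separate support. Among other lists the count was 22 of 46 interferon-induced genes, 18 of 45 phagocyte surface molecules and 0 of 80 ribosomal protein genes. Among the 205 called genes, low U937 control values were thus more frequent than high Molm13 control values. The U937 control libraries are 1 gradient as far as the labels say. Line label, genotype and gradient cannot be told apart in this difference.

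**Figure D5:**
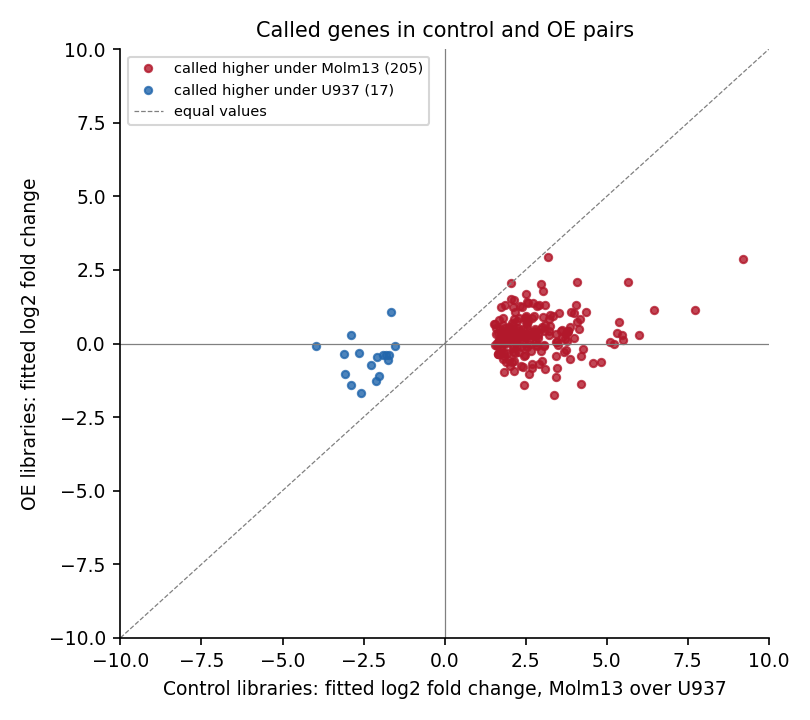
Fitted log2 fold change of Molm13 over U937 in the control libraries (x axis) and in the libraries labelled OE (y axis) for the 205 genes called higher under Molm13 (red) and the 17 called higher under U937 (blue), with 1 point per gene; the dashed line marks equal values. Most points lie near 0 on the y axis, with medians of 0.29 and -0.40.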

How the data were processed

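Counts of 8 libraries (2 line labels, 2 genotypes, 2 pools) were analysed. Reads were trimmed, aligned and counted per gene with cutadapt, STAR and featureCounts on GRCh38, per the submitters' processing notes; tool versions, the annotation release and whether strand was used were not stated there. The deposited table holds raw counts per gene made by the authors, for 78932 genes, 42179 of which matched a symbol; positions came from GENCODE 29. Genes with near equal counts, such as TALAM1 with at least 99.9% of the MALAT1 counts in every library, show that overlapping genes were both counted, and antisense genes cannot be told apart.

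In R 4.3.3, edgeR 4.0.16 scaled libraries by TMM, kept 24289 genes with filterByExpr and fitted its quasi-likelihood model to all 8 libraries, with genotype by pool and a line difference within each genotype (6 coefficients, 2 residual degrees of freedom). Adjusted p-values are Benjamini-Hochberg over all tested genes. Libraries of a label were paired by pool. Log2 CPM used a prior count of 2. Depths of 25741930 to 89373133 counts put 3 counts at 0.0318 to 0.0560 CPM in the control libraries; intervals and floors cover counting error only. On simulated data for this comparison (23540 genes), 3.64% of genes changed 2-fold, 60.3% changed 4-fold and 93.1% changed 8-fold were recovered, and 5 unchanged genes were called. These values describe the simulated counts only and are no error rate for the calls in the data. In the data the pools of a label share their cells, as far as the labels say, and the light control libraries differ in mitochondrial RNA. The error rate of the calls under these conditions was not tested.

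The lists, rules and members were chosen with earlier results of these data known, and 4 lists were added after values were seen. Named were the 12 largest called differences per direction that averaged 10 CPM or more and kept their direction in the OE pairs, 23 key genes, up to 8 called members per list and 5 genes per direction with opposite pools; others are said to be outside the rule. Some genes under these rules are not reported here. Alternatives were DESeq2 1.42.0, limma 3.58.1 (voom), other scalings, no filter, fewer libraries, no pool term, summed gradients and leaving out each library.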

Additional observations from a re-analysis of the deposited data

Results flagged for a closer look

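For 32 of 24289 tested genes the difference between the line labels in control differed from that in the libraries labelled OE. The test was edgeR's quasi-likelihood test of the difference itself (Benjamini-Hochberg adjusted p under 0.05, with 1312 genes at an unadjusted p under 0.05). It took the pools of a gradient as replicates. Of the 32 genes, 30 had a larger value in control, and 28 were among the 205 genes called higher under Molm13. Those 205 were called on the same control values, so the overlap and the larger control values are partly fixed in advance. Of the genes named in the report, the control minus OE log2 difference was 5.45 for the carbonic anhydrase CA9, 3.85 for the enolase ENO2 and 3.13 for PFKFB4. It was 2.88 for CYTIP, 2.76 for BCL2A1, 2.69 for RGS1 and 2.78 for BCL3. It was 3.80 for the Fc receptor FCGR2B, 2.88 for the integrin ITGAX and 3.84 for the stress cytokine GDF15. The creatine transporter SLC6A8 had 4.39, the growth factor PDGFB 5.16 and ENSG00000310471 5.39. The interleukin 7 receptor chain IL7R had -2.72, with 20.4 and 10.4 CPM in the light and heavy Molm13 OE libraries and 7.26 and 6.78 CPM in the U937 OE ones. What separates the genotypes here was not tested.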

How the results depend on the processing

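The calls (205 higher under Molm13, 17 under U937) depend on taking the pools of 1 gradient as replicates. Pairing by pool is the replicate block: with no replicate block, in the 4 control libraries, edgeR called 0 and 0 genes (1236 at an unadjusted p under 0.05), and with counts summed per gradient 0 and 0 (1184 unadjusted), while DESeq2 called 441 and 126 with the block. The counts were 528 and 88 with no filter on low counts, and 382 and 61 with only the 4 control libraries. Leaving out 1 library gave 112 to 2034 genes higher under Molm13 and 52 to 771 higher under U937. The lower counts under Molm13 came without the Molm13 (112) or U937 (122) control light library, which leaves the heavy pair, and the higher ones without a heavy control library; without 1 OE library they were 403 to 420 and 58 to 61. The cause was not tested. Limma voom called 174 and 22, RLE scaling 184 and 21 and upper-quartile scaling 184 and 14.

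By size alone, 117 and 53 genes became 16 and 0 at a log2 difference of at least 2, 409 and 161 at a mean of at least 1 CPM, 1705 and 910 in the light pair alone and 188 and 389 in the heavy pair alone. Of 99 named genes, 30 lost their call without the Molm13 control light library, and 63 did with no replicate block or summed gradients. NPW, which differs in opposite directions between the pools, (log2 difference -0.41, and -2.32 without a light control library) turned to 1.51 without the Molm13 control heavy library and to 1.48 without the U937 one, where the light pair alone is left.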
